A study of Mus musculus with 6 samples.

Results

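Transcripts of the mitochondrial respiratory chain and of the ATP synthase were followed in mouse kidney by taking every array probe whose single gene symbol names a nuclear-encoded subunit of complexes I to V or cytochrome c (symbols beginning Nduf, Sdh, Uqcr, Cox4 to Cox8 or Atp5 by a fixed pattern, and Cyc1 and Cycs). This gave 83 probes for 58 of the 9107 genes named on the array, and 3 more probes were left out because their annotation gives several symbols. Complex I was represented by 23 genes (26 probes), complex II by 3 (5), complex III by 7 (10), complex IV by 8 (12) and complex V, the ATP synthase, by 15 (26). Cytochrome c, Cycs, had 2 probes. Cox7a2l, which matches the pattern but encodes an assembly factor of supercomplexes, also had 2 probes and was kept out of the complex summaries. Ndufa4 was counted in complex IV.

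RNA came from whole kidneys of male Swiss albino mice of 8 to 10 weeks, stated as 4 per group, with tissue taken 24 h after the drug. The groups received amodiaquine, an antimalarial 4-aminoquinoline, at 120 mg/kg, Sulfodoxine-Pyrimethamine (SP, an antifolate pair) at 300 mg/kg and 15 mg/kg, or all of these together. Vehicle mice received the solvent DMSO. Each of 6 arrays set treated RNA in 1 dye directly against vehicle RNA in the other, and by the labels the dyes were exchanged between the 2 arrays of a treatment. The labels do not say whether RNA of several mice was pooled or whether both arrays of a pair held the same extracts, so any spread between arrays may be technical. In whole kidney, fewer cells of a type and less RNA per cell cannot be told apart.

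The 6 files held 4 separate scans. For SP, 36.9% of the Cy3 foreground values of replicate 2 also stood in replicate 1, and for amodiaquine+SP 41.9%, against 0.0911% for amodiaquine. Each of these pairs was therefore taken as 1 scan measured again under opposite labels, and the direction of change is not settled for SP or amodiaquine+SP. Only amodiaquine had 2 separate scans. An array holds 48 blocks of 480 spots, and a block was used only where its spot grid was in register with the other treatments' scans. That left 20 and 25 blocks on the amodiaquine arrays, 35 on the SP scan and 29 on the amodiaquine+SP scan, with 37, 35, 47 and 45 of the 58 genes.

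The respiratory chain passes electrons from NADH through complex I, or from succinate through complex II, by way of ubiquinone, complex III and cytochrome c to oxygen at complex IV. Complexes I, III and IV pump protons across the inner mitochondrial membrane, and the ATP synthase uses the return flow to make ATP. The kidney, above all the proximal tubule, is dense in mitochondria because solute reabsorption runs on ATP. The transcription factors NRF1, ERR alpha, YY1 and the ETS family member GABP are known to act on many of these genes.

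These 4 promoters are shown because they belong to members that were bright in the scans described next and hold a match to the motif of such a factor. The sequences are the 250 bases before the gene start from RefSeq (GRCm38.p6), written 5′ to 3′ on the gene's strand, with the motif in capitals. Cycs (chr6:50566570-50566819, minus strand) and Cox6a1 (chr5:115348959-115349208, minus strand) hold the NRF1 motif, in Cox6a1 as overlapping matches on both strands. Atp5g3 (chr2:73911327-73911576, minus strand) holds the ERR alpha motif, and Atp5j (chr16:84834977-84835226, minus strand) that of YY1.
Cycs: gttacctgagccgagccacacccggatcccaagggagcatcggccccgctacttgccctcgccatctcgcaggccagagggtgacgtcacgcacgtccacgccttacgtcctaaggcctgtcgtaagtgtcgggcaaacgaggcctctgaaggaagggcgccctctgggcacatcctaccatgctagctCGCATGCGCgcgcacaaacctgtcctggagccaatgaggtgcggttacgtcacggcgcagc
Cox6a1: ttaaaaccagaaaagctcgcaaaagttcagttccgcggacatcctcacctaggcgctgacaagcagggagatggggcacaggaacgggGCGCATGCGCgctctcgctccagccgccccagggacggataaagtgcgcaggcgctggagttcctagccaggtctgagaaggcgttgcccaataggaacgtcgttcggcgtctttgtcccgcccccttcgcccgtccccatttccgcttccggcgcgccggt
Atp5g3: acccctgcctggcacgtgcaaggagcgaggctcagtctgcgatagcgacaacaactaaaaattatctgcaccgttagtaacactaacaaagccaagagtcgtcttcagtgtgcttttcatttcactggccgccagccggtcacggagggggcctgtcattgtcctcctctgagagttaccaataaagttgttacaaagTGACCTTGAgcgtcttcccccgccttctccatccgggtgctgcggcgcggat
Atp5j: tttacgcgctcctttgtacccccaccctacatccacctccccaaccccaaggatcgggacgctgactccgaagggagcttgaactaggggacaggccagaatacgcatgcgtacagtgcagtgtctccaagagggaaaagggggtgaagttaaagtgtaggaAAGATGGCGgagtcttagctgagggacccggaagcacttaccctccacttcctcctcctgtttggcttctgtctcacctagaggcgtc

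Over windows of 250 bases before to 50 after the start, 48 of the 58 genes had a promoter sequence in the table. The NRF1 motif GCGCATGCG, searched on both strands, stood in 6 of the 48 (12.5%) and in 1.95% of 27025 promoters. The YY1 motif AAGATGGCG stood in 5 members (10.4%) and in 1.64% of all promoters. The ETS and GABP motif CCGGAAGT stood in 5 members (10.4%) against 4.31%, and the ERR alpha motif TCAAGGTCA in 2 members (4.2%) against 0.47%. A match says only that these letters stand in the window.

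As a group, the subunit genes lay among the brighter spots of the kidney arrays, and those of the ATP synthase were the brightest complex by median. Brightness was ranked as a percentile of foreground minus background over all 23040 spots of an array, separately for each scan and dye, which gave 8 readings. Over all subunits and Cycs the median gene stood at a percentile of 84.4 (lowest reading 72.8, highest 89.5), against 52.2 (50.7 to 58.4) for all named probes in register. Of the 53 genes in register in at least 1 scan, 48 had a median percentile above 50 and 18 above 90. Spot brightness also depends on the probe and the dye, so these are orders of spots and not of transcript numbers per cell. The 5 genes in register in no scan were Ndufa8, Sdhd, Uqcrfs1, Ndufa4 and Atp5mpl.

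Members were more often above background than other probes. A spot was called above background when both dyes had a signal-to-noise ratio of 2 or more. Of the member probes in register, 19 of 42 (45.2%) and 16 of 41 (39.0%) met this on amodiaquine replicates 1 and 2, 20 of 64 (31.2%) on the SP scan and 21 of 58 (36.2%) on the amodiaquine+SP scan. All named probes met it at 12.0%, 8.4%, 9.0% and 9.7%. On amodiaquine replicate 1 the Cy3 background was recorded as 0 at 7079 of the 23040 spots, and such spots can pass in Cy3 at a low signal. Ndufb7 at block 43 did so with a brightness of 136.8, though not in Cy5. In complex V the shares were 63.6%, 57.1%, 45.0% and 58.8%, of 11, 14, 20 and 17 probes in register. No probe of complex II met it in any scan, but only 1, 2, 3 and 3 were in register, too few to compare. Even so, 25 of the 53 genes in register passed in no scan, and 13 were above background in no reading of either dye.

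Complex V stood highest at a median percentile of 89.8 over the 8 readings, with an SD of 2.07 and a range of 88.5 to 94.6. Complex III followed at 85.9 (SD 16.7, 46.1 to 92.2), complex II at 82.4 (SD 9.46, 62.1 to 87.9), complex I at 76.8 (SD 8.24, 65.3 to 89.2) and complex IV at 73.2 (SD 11.5, 55.4 to 91.1). A reading rested on 10 to 14 genes for complex V and 12 to 18 for I. It rested on 1 or 2 genes for complex II, 5 for III and 4 to 7 for IV. The genes in register also differed between scans, and the part of gene number in these SDs was not tested. Complex V was above complexes I and II in 8 of 8 readings, above IV in 7 and above III in 6. The median gap to complex I was 13.9 percentile points, and it ran from 2.24 to 23.2. No pair among complexes I to IV kept its order in all 8 readings. Complex I was above II in 4 of 8 readings, above III in 3 and above IV in 5. Complex III was above II in 5, and complexes II and III were each above IV in 6. With 4 scans no exact test over scans can reach 0.05, and none is given.

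**Figure D1:**
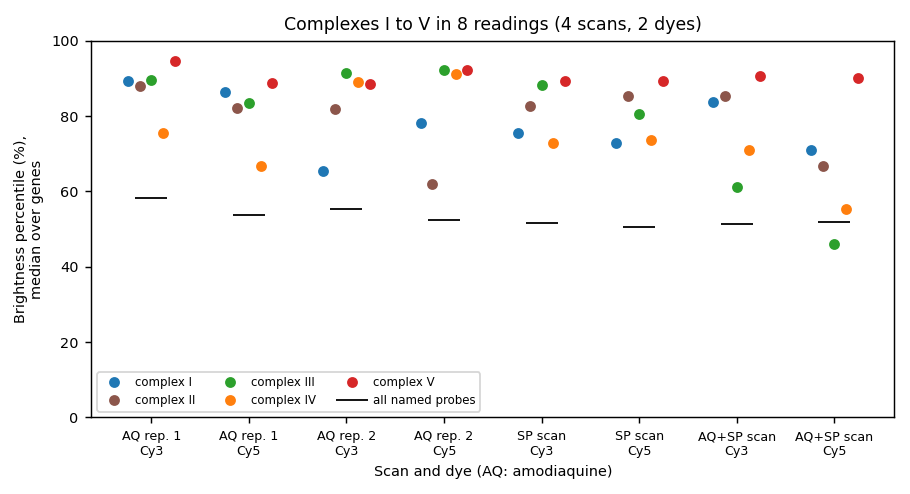
Median brightness percentile over the genes of each complex (y axis, %) in each of 8 readings, 4 scans by 2 dyes (x axis); black bars give the median of all named probes in register. Complex V stays between 88.5 and 94.6 in every reading, whereas complex III ranges from 46.1 to 92.2.

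The wide range of complex III came from the amodiaquine+SP scan, where its medians were 61.2 in Cy3 and 46.1 in Cy5. Cyc1 was not in register there, and the dim Uqcrh was in register only there. Without that scan, complex III had a median of 88.9 and complex V 89.3.

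Genes within complexes I, III, IV and V differed by more than the complexes did, while those read in complex II lay close together. In complex I the brightest were accessory subunits. Ndufa9, of the peripheral arm, read 98.2 and 98.6 on the SP scan (Cy3, Cy5), 98.0 and 98.6 on the amodiaquine+SP scan and 89.4 and 98.3 on amodiaquine replicate 1, so only 1 Cy3 reading was lower than the rest. Ndufa2 had a median of 95.3 over 6 readings (94.9 to 96.5) and Ndufb3 93.3 over 4 (90.3 to 95.7). Ndufb10, read in all 4 scans, had a median of 92.9 (84.3 to 94.7). The dimmest were Ndufs7 at 19.4 over 6 readings (0.8 to 61.0) and Ndufs1 at 42.9 over 8 (0.8 to 78.3), both core subunits that carry iron-sulphur clusters. Other core subunits were brighter, with Ndufs8 at 70.0 and Ndufs3 at 85.1. Ndufs7, Ndufs1 and Ndufs8 were above background in no reading, and Ndufs3 in 3 of 6. Of the 22 complex I genes in register, 5 had a median above 90 and 8 were above background in no reading.

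Complex II, which is also succinate dehydrogenase of the citric acid cycle, was read by its catalytic subunits alone. The flavoprotein subunit Sdha had a median percentile of 83.2 over 8 readings (76.2 to 87.9), and the iron-sulphur subunit Sdhb 82.5 over 6 (39.7 to 89.4). Sdha was above background in 2 of 10 spot readings and Sdhb in 2 of 8. Both thus ranked high among all spots while standing little above their local background.

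Complex III held some of the brightest and some of the dimmest spots. Cyc1, the cytochrome c1 that hands electrons to cytochrome c, read 97.6, 98.0, 98.4, 98.3, 98.8 and 99.0 over both dyes of 3 scans. Uqcr11, a small subunit, had a median of 94.0 over 8 readings (91.7 to 95.0). The core proteins were lower, with Uqcrc2 at 60.7 (36.5 to 91.4) and Uqcrc1 at 51.4 (31.8 to 71.1). Uqcrh, the hinge protein, was lowest at 27.4 in 2 readings. Every reading of Cyc1 was above every reading of Uqcrc1. Cycs, the mobile carrier between complexes III and IV, had a median of 92.5 over 8 readings, from 45.3 in Cy3 of the SP scan to 96.8. Its readings in the SP scan are medians of 2 probes, because the dim block 18 probe was in register only there.

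The brightest gene of complex IV was Cox6a1, the isoform known from liver and other non-muscle tissue. It read 98.5 and 98.1 on amodiaquine replicate 1, 99.1 and 98.3 on replicate 2 and 94.7 and 93.9 on the SP scan. The heart and skeletal muscle isoform of the same subunit, Cox6a2, had a median of 81.4 over 6 readings (69.2 to 87.3). Cox6a2 was above background in 1 of 6 readings and Cox6a1 in 6 of 6. In both scans that held both probes, amodiaquine replicate 2 and SP, Cox6a1 was above Cox6a2 in both dyes. Of 10 muscle markers only Actn3 (54.0) and Myh6 (58.8) were on the array and in register, and the part of muscle RNA in the Cox6a2 signal was not tested.

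Cox4i1, the widely expressed form of the largest nuclear-encoded subunit, had a median of 89.7 over 8 readings (64.5 to 98.9). Cox8a stood at 73.5 and Cox7b at 71.5. The dimmest members of complex IV were Cox6b1, the general isoform of its subunit, at 9.1 over 4 readings (2.4 to 48.7), and Cox6b2, its testis isoform, at 23.5 over 6 (11.7 to 50.3). Neither was above background in any reading, so no order between these isoforms can be read. Cox7a2l, the supercomplex factor, had a median of 61.1 (6.9 to 80.2).

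The ATP synthase had 9 of 14 genes in register above a percentile of 90 and none with a median under 50. Atp5g3, which encodes the proton-carrying ring subunit c, was the brightest of all members at 99.4 over 8 readings. Its background-subtracted brightness was 14622 and 42533 (Cy3, Cy5) on amodiaquine replicate 1, 5166 and 56261 on replicate 2, 21150 and 34046 on the SP scan and 22539 and 38167 on the amodiaquine+SP scan. Cy5 was brighter than Cy3 in all 4 scans before normalisation, and the lowest reading was Cy3 of amodiaquine replicate 2, at a percentile of 96.7. Another gene for the same ring subunit, Atp5g1, stood at 90.4 (79.1 to 93.4). Atp5c1, the gamma subunit of the rotating stalk, had a median of 98.0 (93.0 to 98.7). Atp5j, coupling factor 6 of the stator, had 94.3 (89.0 to 97.0), and Atp5h, subunit d, 93.7 over 4 readings (91.7 to 94.4). Lowest by the median over probes were Atp5pb, stator subunit b, at 55.2 (12.6 to 89.7) and Atp5j2, subunit f, at 60.3 (9.3 to 86.5). For Atp5pb this came from the block 2 probe (52.6), and a block 19 probe, in register in the SP scan alone, stood at 98.5.

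**Figure D2:**
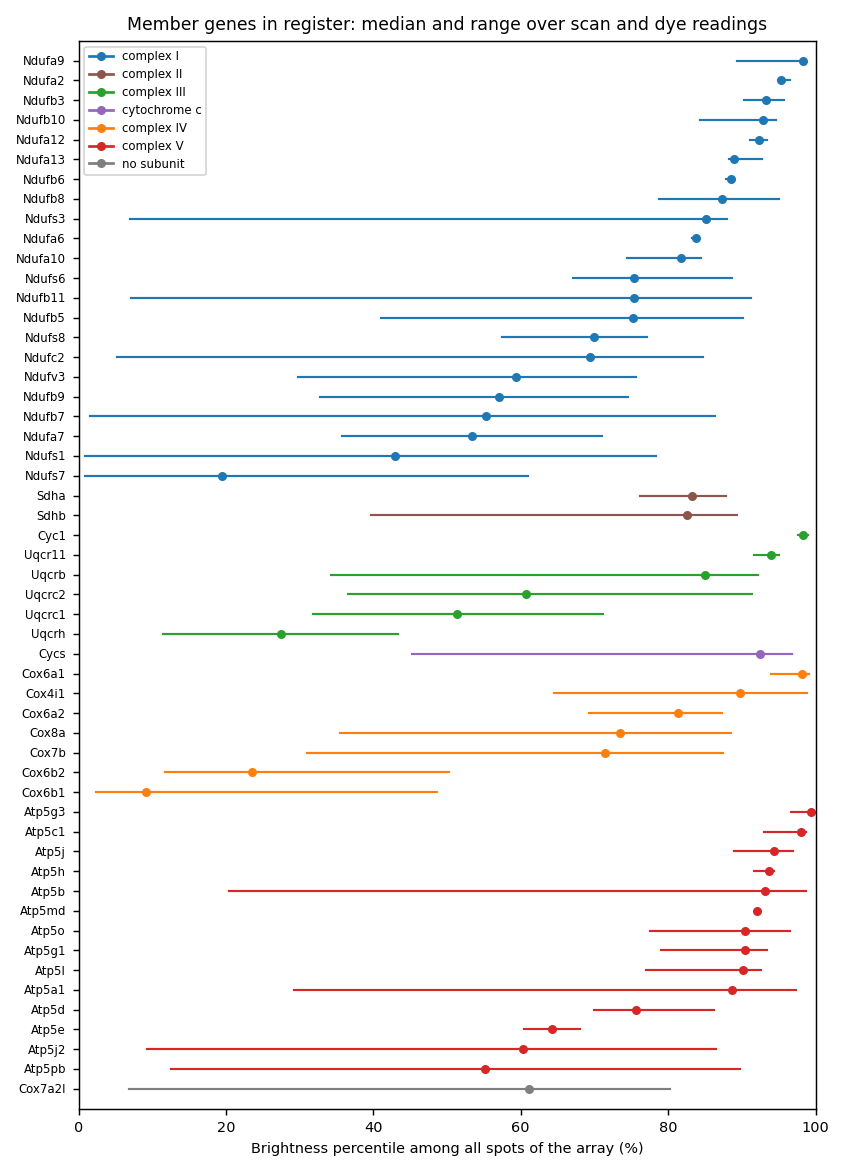
Brightness percentile among all spots of the array (x axis, %) of the 53 member genes in register, grouped by complex (colour); points are medians and lines run from the lowest to the highest of a gene's 2 to 8 scan and dye readings. Complex V has 9 genes above 90, and genes of every complex with more than 2 genes in register spread widely.

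Probes of one gene often disagreed. Over 16 genes with at least 2 probes in register, the gap between the brightest and the dimmest probe ran from 0.4 percentile points for Ndufb7 to 94.7 for Atp5b. Atp5b, the catalytic beta subunit, read 98.3, 94.3, 98.7 and 95.0 at its block 43 probe on the amodiaquine arrays, whereas its block 13 probe on the amodiaquine+SP scan read 0.5 and 3.3. No probe of Atp5b was in register both on an amodiaquine array and on another treatment's scan, so its wide range (20.4 to 98.7) compares probes as well as scans. The Cycs probes stood at 92.5 and 12.2, and those of Cox4i1 between 98.4 and 29.9. Over the whole array, pairs of spots with the same accession had percentiles that correlated at r of -0.001 to 0.053 over 3242 accessions, given as a description across probes of the same scans. With names by spot number the range was -0.024 to 0.108. Blocks out of register were included in both. Spots of the same accession thus hardly read alike under either order, and this measure did not favour the order of names used here.

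The position of each name on the array was itself reconstructed, by reading the probe table's blocks in another order than the scanner's, and that order had been chosen on the brightness of ribosomal protein spots. Member spots had a mean percentile of 69.0 in this order, taken over all blocks whether in register or not. At 48 displaced positions the mean ran from 45.8 to 56.2, and with names taken by spot number it was 54.5. Every gene statement here rests on that order.

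Subunit genes had a higher median brightness than most lists of related genes. The median percentile of 12 citric acid cycle and pyruvate dehydrogenase genes in register was 65.4 over the readings (48.4 to 76.8), with Mdh2, mitochondrial malate dehydrogenase, brightest at 86.2. The 16 assembly factors stood at 56.1 (33.0 to 74.0), close to all named probes, and only Ndufaf6 (92.3) passed 90. The 46 mitochondrial ribosomal proteins stood at 69.4 (51.0 to 73.5). Carriers and porins were higher at 86.8 (37.7 to 89.9) over 10 genes, led by the carnitine carrier Slc25a20 (97.1) and the ADP/ATP carrier Slc25a5 (95.0). The 9 regulators of mitochondrial biogenesis stood at 51.4 (35.7 to 65.2), among them Nrf1 at 53.6 and Ppargc1a at 58.5. Glycolysis genes, 9 in register, reached 88.0 (70.8 to 92.6).

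Markers of kidney cell types were few. Proximal tubule markers, 4 in register, had a median of 87.4. The fatty acid transporter Slc27a2 stood at 96.3 and megalin, Lrp2, at 88.8. Aqp1 was lower at 78.2 (38.7 to 91.1), and Gatm at 59.1 (2.0 to 95.8). Umod, of the thick ascending limb, stood at 96.2. Glomerular and endothelial markers stood at 43.6 (5 genes), immune markers at 59.8 (2), muscle markers at 52.0 (2) and erythroid markers at 20.5 (2). Collecting duct was represented by Slc4a1 alone, at 26.4. Slc4a1 is also 1 of the 2 erythroid markers, so these 2 lists are not separate readings.

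None of the 12 member genes that could be tested was called different between amodiaquine and vehicle kidneys, in a fit that could hardly call any probe. Ratios used probes above background in both dyes, corrected by loess within each block, on the log2 scale. There were 18 and 14 member genes with a ratio on amodiaquine replicates 1 and 2, 18 in the SP scan and 19 in the amodiaquine+SP scan, and 28 had one in at least 1 scan. None was of complex II. The genes that passed are the bright ones and do not stand for the whole set.

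For amodiaquine, 563 probes were above background on both arrays, 12 of them members, each of another gene. With each array's sign turned so that positive means treated above vehicle by the labels, limma called 0 of the 563 (0.0%) at an adjusted p under 0.05 and so 0 of the 12 members. At an unadjusted p under 0.05 it also called 0 of the 563. The smallest unadjusted p of a member was 0.524, for Cycs. Likewise 0 of the 12 members and 0.0% of all probes changed by 1.5-fold or more in the same turned direction on both arrays. The median turned log2 ratio was 0.04 over the members and 0.03 over all 563 probes.

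The ratios followed the dye and not the labelled treatment. Over the 563 probes the log2 ratios of both arrays correlated at r = -0.81 once turned and at 0.81 as Cy5 over Cy3, so the direction of any amodiaquine difference is not settled and ratios are also given unturned. Of the 12 members, 5 kept a sign over both arrays when turned and 7 when unturned.

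Turned values of the complex I members were small. Ndufb10 had 0.20 on replicate 1 and 0.15 on replicate 2 (mean 0.18 ± 0.45, SE), and Ndufb3 had 0.24 and 0.11 (0.18 ± 0.45). In complex III, Cyc1 had 0.39 and -0.12 (0.13 ± 0.47) and Uqcr11 0.51 and -0.20 (0.16 ± 0.49). Cycs had -0.22 and -0.41 (-0.32 ± 0.45), the lowest mean of the members. Each of these means was within 1 SE of 0.

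Of the ATP synthase, Atp5c1 had -0.20 and -0.06 (-0.13 ± 0.45), Atp5g3 -0.27 and 0.09 (-0.09 ± 0.46) and Atp5j -0.14 and 0.22 (0.04 ± 0.46). Atp5l, subunit g of the membrane part, had 0.02 and 0.63 (0.32 ± 0.48), the highest mean. These, too, lay within 1 SE of 0. Larger single-array values came from Atp5b, with -2.07 and 1.51 (-0.28 ± 1.06), Cox4i1 with -1.86 and 1.39 (-0.23 ± 0.98) and Cox6a1 with -0.52 and 0.60 (0.04 ± 0.54). In all 3 the arrays were opposite in turned sign, so the normalised ratio leaned to Cy3 on both. Before normalisation Cy3 was the brighter dye for Atp5b and Cox4i1 and Cy5 for Cox6a1. With loess over the whole array in place of blocks, the turned mean changed sign for Ndufb10, Atp5l, Cycs, Atp5j, Cox6a1 and Cyc1, and it moved to -1.09 for Atp5c1 and -1.07 for Atp5g3. The authors' deposited table gave -0.84 and -0.85 for Atp5c1 and Atp5g3.

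Read as Cy5 over Cy3 with no sign turned, 191 of the 563 probes (33.9%) were called by limma, and 3 of the 12 members (Cox4i1, Atp5b and Cox6a1). Cox4i1 had a mean of -1.63 ± 0.18 (SE; adjusted p = 0.0146), Atp5b -1.79 ± 0.20 (0.0146) and Cox6a1 -0.56 ± 0.14 (0.0498), each toward Cy3 on 2 of 2 arrays. By fold, 2 members (Cox4i1 and Atp5b) had a normalised ratio toward Cy3 of 1.5-fold or more on both arrays, beside 110 of all probes (19.5%). No member leaned to Cy5 to that extent on both, beside 48 of all probes (8.53%). In each of the 3, the dye the ratio leaned to was labelled vehicle on replicate 1 and treated on replicate 2. Atp5b and Cox6a1 were among 5 members with a recorded Cy3 background of 0 on replicate 1, with Ndufb3, Cyc1 and Atp5j. When spots with a background of 0 were left out, 85 of 386 probes were called unturned. Of the 7 members that remained, Cox4i1 alone was called (adjusted p = 0.0354). Atp5b and Cox6a1 were left out there and so not tested. With loess over the whole array limma called 0 of the 563 unturned (84 at an unadjusted p under 0.05), and so none of the 3 (adjusted p = 0.289 for Cox4i1 and Atp5b and 0.374 for Cox6a1), while all 3 means stayed below 0.

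**Figure D3:**
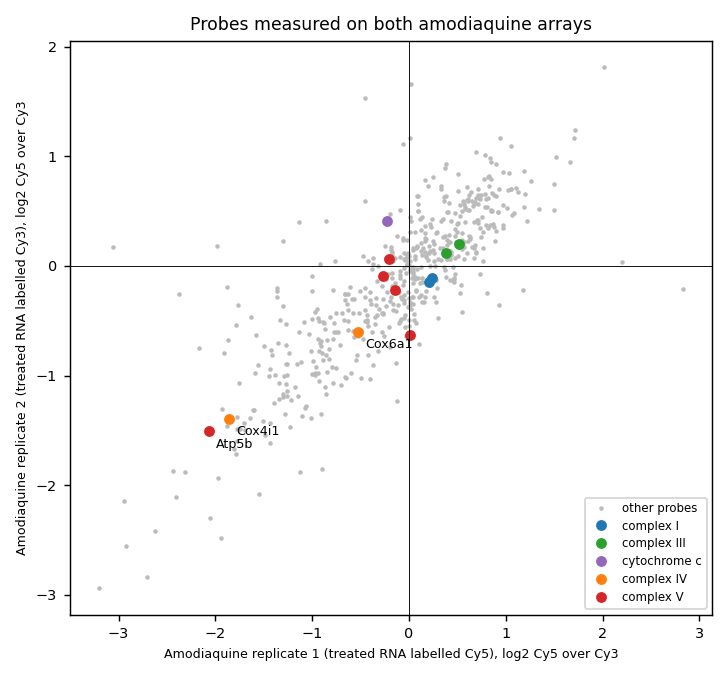
Log2 Cy5 over Cy3 on amodiaquine replicate 1 (x axis) and replicate 2 (y axis) for the 563 probes above background on both; coloured points are the 12 members and grey points all others. Most points run along the rising diagonal, so the arrays vary together by dye, with Atp5b and Cox4i1 at the low end.

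On the single arrays, 2 of 19 member probes (10.5%) lay past 1.5-fold on amodiaquine replicate 1, beside 41.1% of all probes that passed. On replicate 2 there were 8 of 16 (50%), beside 36.7%. The spread of the member probes (SD 0.66 and 0.72) was near that of all probes (0.83 and 0.71). Atp5a1, the alpha subunit, had opposite values at its probes on replicate 2, 1.15 at block 46 and -1.38 at block 40, and no ratio on replicate 1.

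In the SP scan the members were tightly grouped near 0. Over 20 probes of 18 genes the SD was 0.23, against 0.51 over all 1633 probes, and the median log2 Cy5 over Cy3 was 0.06 against 0.07. The genes ran from -0.31 for Cox6a1 to 0.33 for Ndufa2. At the probe level 1 of 20 (5.0%) was past 1.5-fold, beside 20.6% of all probes. That probe was Cox4i1 at block 30 (-0.65), while Cox4i1 at block 44, the brighter spot, had -0.07. There is 1 scan and no replicate, so no test was made. Members were brighter than most spots, and the part of brightness in this narrower spread was not tested.

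In the amodiaquine+SP scan the SD over 21 member probes of 19 genes was 0.30, against 0.58 over all 1391 probes, with medians of 0.09 and 0.03. The genes past 1.5-fold were 4: Atp5o (0.69), which encodes the stator protein OSCP, Ndufa9 (0.61) and Atp5c1 (0.61) toward Cy5, and Atp5g3 (-0.64) toward Cy3. They made up 4 of 21 member probes (19%), beside 18.3% of all probes, so the share was near the background. With loess over the whole array, or with plain background subtraction, 1 of 19 member genes was past 1.5-fold.

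A few members had a ratio in all 4 scans. Uqcr11 had a log2 Cy5 over Cy3 of 0.51 and 0.20 on the amodiaquine arrays, 0.22 in the SP scan and 0.20 in the amodiaquine+SP scan, toward Cy5 each time. Atp5g3 had -0.27, -0.09, 0.02 and -0.64, and Atp5c1 -0.20, 0.06, -0.05 and 0.61. Atp5j had -0.14, -0.22, 0.13 and 0.14, Cycs -0.22, 0.41, -0.01 and 0.17, and Ndufb10 0.20, -0.15, 0.04 and 0.14. Apart from Uqcr11, these genes changed sign between scans. The Cox4i1 probe at block 30 was toward Cy3 in each of its 3 scans, at -1.86, -1.39 and -0.65.

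By complex, medians of the genes that passed stayed within 0.5 of 0 in log2 in both single scans. In the SP scan complex I had 0.17 (5 genes), complex III 0.19 (2), complex IV -0.19 (2) and complex V 0.02 (8). In the amodiaquine+SP scan they had 0.05 (7), 0.20 (1), -0.02 (2) and 0.05 (8). On amodiaquine replicate 1 complex III was at 0.45 (2) and complex IV at -1.19 (2), the latter from Cox4i1 and Cox6a1, and replicate 2 had 0.16 (2) and -0.68 (2). Complex IV thus lay toward Cy3 and complex III toward Cy5 in each scan, but the 2 genes of complex IV were not the same in every scan, and arms of 1 or 2 genes allow no statement about a complex.

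**Figure D4:**
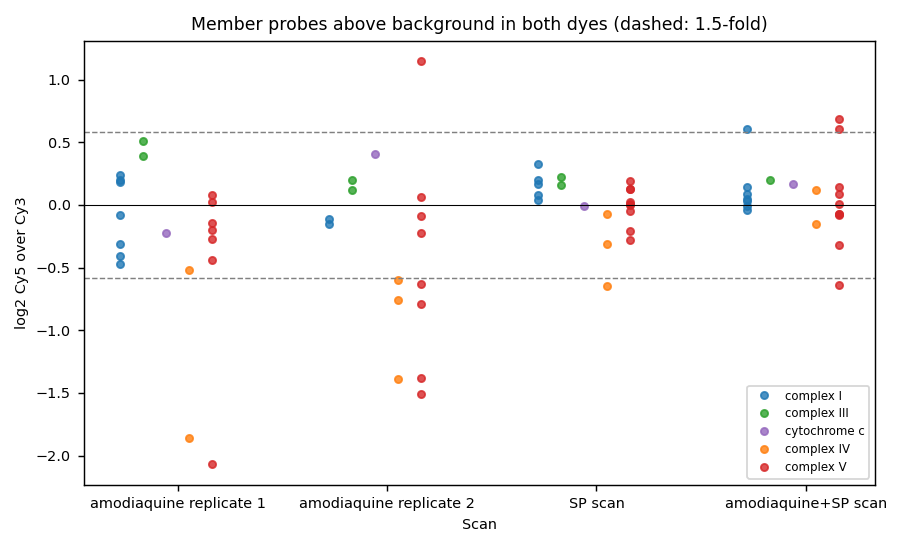
Log2 Cy5 over Cy3 (y axis) of each member probe above background in both dyes, by scan (x axis) and complex (colour); dashed lines mark 1.5-fold. Points of the SP scan lie within the lines except Cox4i1 at -0.65, and the amodiaquine arrays spread from -2.07 to 1.15.

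Among the related lists, few genes had a ratio on both amodiaquine arrays and none was called by limma. These were 4 mitochondrial ribosomal protein genes (median turned log2 ratio 0.08), 1 carrier (-0.18) and 1 glycolysis gene (0.07), with 0 of them past 1.5-fold in either direction. No citric acid cycle gene, assembly factor or regulator passed on both arrays.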

How the data were processed

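Treated and vehicle kidney RNA was compared on 6 two-colour arrays. Each sample's 25 ug of total RNA was labelled with Cy3 or Cy5, per the labels. Images were taken with ImageQuant 5.0 and spots measured in ArrayVision 8.0, per the series' design text. For every spot, the authors deposited linear foreground and background intensities of both dyes, not normalised, with a signal-to-noise ratio. The authors' deposited log2 ratios, normalised by LOWESS in Avadis 4 per the design text, served as an alternative, and the sources used here do not give their centring. Against the scanner values their slope was 0.959 to 0.994 on arrays labelled forward and -0.993 to -0.970 on those labelled reverse.

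Names came from the platform's probe table (15114 spots with 1 gene, 206 with several, 7720 unnamed), with probe block p read at scanner block 12 × (p mod 4) + floor(p / 4), counted from 0. A block was in register when both dyes matched other treatments better unshifted than at any shift of up to 3 rows or columns, and its dyes had a rank correlation of 0.5 or more. A gene's percentile is the median over its probes in register, and a complex's the median over its genes. Replicate 1 files stood for the SP and amodiaquine+SP scans.

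For ratios, background was corrected with normexp (offset 50), followed by loess within each block, in limma 3.58.1 under R 4.3.3. Spots needed a signal-to-noise ratio of 2 in both dyes, and the brightest probe stood for a gene in the scan summaries. For amodiaquine, limma was fitted to 2 arrays turned by the labelled dye (1 residual degree of freedom, 2.49 prior), with Benjamini-Hochberg adjustment over all 563 probes. The code was tested on simulated data with independent noise. The simulation held no part shared by dye, so it does not show what the turned fit could find here. Python 3.11.15 was used for ranks and counts. Precision is limited by the number of arrays.

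The members and lists were chosen with earlier results of these data known. Named were the brightest 3 and dimmest 2 genes per complex, isoform pairs, genes whose probes differed most, every member tested for amodiaquine, and members past 1.5-fold in the single scans. Others were named after their values were seen. Alternatives covered register, names, background, loess, dim spots, sign and array left out.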

Additional observations from a re-analysis of the deposited data

How the results depend on the processing

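Complex V had the highest median under all 12 settings run, the one reported included. Most of these settings reuse the same spots, so they are not separate tests. Names by spot number read other spots for these genes, so the first place of complex V there is no support for its rank. Its lead was narrowest without the amodiaquine+SP scan (89.29 against 88.88 for complex III) and with names by spot number. Its value became 92.17 with the other file of the SP and amodiaquine+SP scans. Names by spot number gave 68.46 for complex I, 66.72 for II, 46.54 for III, 40.88 for IV and 68.96 for V. Complex II had 72.79 over all spots whatever the register, and complex IV 84.89 with each gene's brightest probe. Leaving out each scan in turn moved no complex by more than its SD over readings.

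For amodiaquine, 0 probes were called by limma under the planned settings other than the unturned one. That one called 191 of 563, and 85 of 386 without spots of background 0. Unturned with loess over the whole array it called 0 (84 at an unadjusted p under 0.05). Member probes past 1.5-fold the same way on both arrays numbered 2 of 12 unturned, both toward Cy3, beside 19.5% of all probes toward Cy3 and 8.53% toward Cy5. Unturned there were also 2 of 12 with loess over the whole array and 1 of 7 without background 0. No share over all probes is given for these last settings. With 1 array left out there were 2 to 4, as values without a test, since no residual degree of freedom remains. The unturned variants with another loess or without background 0 were chosen after seeing the data. No turned mean of a member was called, and the following changed sign, the cause not being tested. Loess over the whole array gave Ndufb10 -0.70, Atp5l -0.94, Cycs 0.65, Atp5j -0.08, Cox6a1 -0.05 and Cyc1 -0.05. Plain subtraction gave Atp5c1 0.02 and Atp5j -0.04. The authors' values gave Ndufb10 -0.54, Atp5l -0.80, Cycs 0.90 and Atp5b 0.0. Unturned values were Atp5l -0.31, Cycs 0.09, Atp5j -0.18 and Cox6a1 -0.56, the same for Atp5l and Cycs without background 0. With loess over the whole array they were Atp5c1 1.04, Atp5g3 0.99, Cycs 0.80, Atp5j -0.26, Cox6a1 -0.63 and Cyc1 -0.06.

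In the SP scan 9 of 46 member genes were past 1.5-fold with no filter on dim probes, and 1 of 9 with names by spot number. In the amodiaquine+SP scan there was 1 of 19 with loess over the whole array, 1 of 19 with plain subtraction, 0 of 9 with names by spot number and 0 of 3 in the replicate 2 file. No share over all probes is given for these settings of either scan, so these counts do not compare members with other probes. No paired analysis was possible because the shared replicate labels mark only the dye orientation, and the replicate block cannot be fitted where each treatment is measured within an array. Few spots stood above background, which limits every ratio given.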
